A study of Equus caballus with 21 samples.

Results

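The genes described here make, break down or regulate prostaglandins: PTGS2, PTGES3, AKR1B1, HPGD, PTGR1 and PTGFRN. They were chosen by name, with earlier results of these data known, as 6 of the 24942 gene IDs of the count table. Their IDs in the files are 791253 (PTGS2), 100059858 (PTGES3), 100065145 (AKR1B1), 100009687 (HPGD), 100058059 (PTGR1) and 100146680 (PTGFRN). All 6 genes were found in the count table and in both deposited CPM tables. They were measured in 21 RNA libraries of horse endometrium, the lining of the uterus, taken by biopsy on day 12 of pregnancy or on day 12 of the estrous cycle. A laser was used to cut the luminal epithelium, the glands and the stroma from frozen sections, and each library came from 1 compartment of 1 biopsy.

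The luminal epithelium gave 4 pregnant libraries (mares B, C, M and U) and 5 cyclic libraries (mares B, C, J, M and U). The glandular epithelium gave 4 pregnant and 4 cyclic libraries, all from B, C, M and U. The stroma gave 2 pregnant libraries (mares M and U) and 2 cyclic libraries (mares B and M). The animals were healthy warmblood mares of unstated age, and the same letter marks the same mare in both states. In both states ovulation was induced with a single dose of 1500 IU of human chorionic gonadotropin, and in the pregnancy cycle the mares were inseminated on the day before ovulation. The mares also received prostaglandin F2alpha on day 12 to end the corpus luteum, and the labels do not say whether this came before or after the biopsy. The labels hold 5 mares, whereas the design text speaks of 6.

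Prostaglandins are lipid signals made from arachidonic acid, which phospholipases release from membranes and which the cyclooxygenases PTGS1 and PTGS2 turn into prostaglandin H2. Terminal synthases then make prostaglandin E2, prostaglandin F2alpha and others, and HPGD followed by the prostaglandin reductases inactivates them. In the mare, prostaglandin F2alpha from the endometrium ends the corpus luteum of a cycle without a conceptus, and the mobile conceptus of early pregnancy prevents that release.

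The depth was low. Total counts ran from 136259 to 440188 in pregnant and from 324704 to 1382614 in cyclic luminal libraries, and from 486316 to 1467510 in pregnant and from 222623 to 1079351 in cyclic glandular libraries. They ran from 202545 to 1175127 in pregnant and from 138441 to 241309 in cyclic stromal libraries. A single count was therefore worth between 0.576 and 6.86 CPM (counts scaled to library size), depending on the library. Mare M's pregnant luminal and cyclic glandular libraries stood apart, with 0.452% and 0.293% of their counts in the 18S ribosomal RNA gene, against 8.29% to 48.8% in the other epithelial libraries. Among the stromal libraries that share was 0.819% in pregnant U and 66.2% in pregnant M. Every level below is in CPM, is compared within a gene and not between genes, and comes from bulk tissue, so fewer cells of a type cannot be told apart from less RNA per cell.

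The clearest pattern lay between the 2 epithelia. Both inactivating enzymes, HPGD and PTGR1, were higher in the luminal than in the glandular epithelium, by a log2 fold change of 6.88 ± 2.02 (SE) for HPGD and of 4.09 ± 0.95 for PTGR1. PTGFRN (6.74 ± 2.32) and the cyclooxygenase PTGS2 (5.43 ± 2.43) had positive estimates that missed the adjusted threshold, and the synthases AKR1B1 (1.92 ± 1.39) and PTGES3 (0.97 ± 0.92) had small ones. No gene of the 6 passed the threshold between pregnancy and cycle in any compartment, and many were too low to test there. The fold changes of luminal over glandular epithelium come from counts summed per mare in the 4 mares with both epithelia, with the mare as a block.

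**Figure D1:**
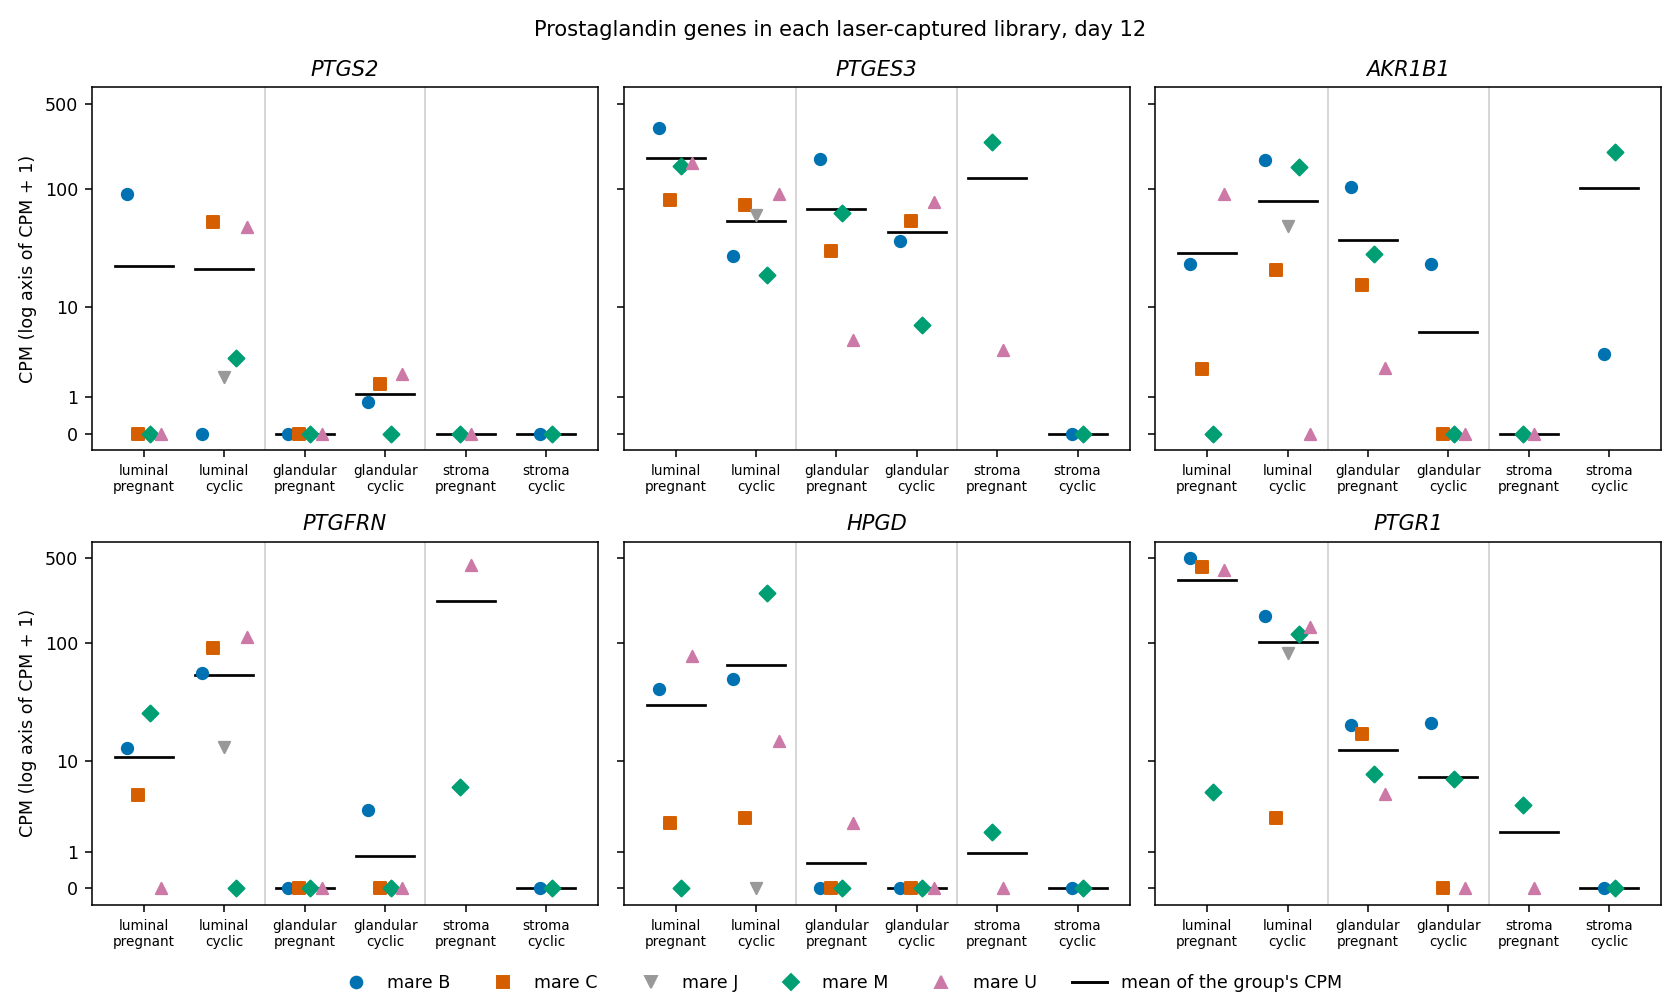
CPM of each of the 6 genes in each library, on a log axis of CPM + 1, with pregnant left of cyclic within each compartment; each symbol is 1 library of the mare named by its shape, and the bar is the group's mean. HPGD lies at 2.44 CPM or less in all glandular and stromal libraries, and PTGR1 at 401 to 502 CPM in 3 of the 4 pregnant luminal libraries.

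PTGS2 encodes the inducible cyclooxygenase, the committed step of prostaglandin synthesis. It had 91.0 CPM in pregnant luminal mare B and 0 in pregnant luminal C, M and U, against 52.9 CPM in cyclic luminal C, 48.6 in U, 3.16 in M, 1.90 in J and 0 in B. The gene was thus high in 3 of 9 luminal libraries, of both states, and near or at 0 in the other 6. In the glandular epithelium it had 0 of 3249074 counts in the 4 pregnant libraries, which allows up to 0.967 CPM by a floor of 3 counts. In the cyclic ones it had 1 count each in B, C and U and 0 in M. Of the 127 PTGS2 counts in the data, 124 (97.6%, exact 95% interval 93.3% to 99.5%) were luminal, while luminal libraries held 38.0% of all counts. That interval covers counting error only, not the spread between mares. Cyclic C (58 counts), pregnant B (35) and cyclic U (29) held nearly all luminal counts. The luminal level was higher than the glandular one in 4 of the 8 biopsies with both, lower in 1 and at 0 in both epithelia in 3. The difference between the epithelia missed the threshold after adjustment over all genes in edgeR's quasi-likelihood test (unadjusted p = 0.0255, adjusted p = 0.259). It passed with DESeq2 (5.31, adjusted p = 0.00797), and the adjusted p ran from 0.00797 to 0.862 over the settings in which PTGS2 could be tested.

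PTGES3 encodes a cytosolic prostaglandin E synthase that is also p23, a co-chaperone of heat shock protein 90. It was the most widely detected of the 6, with a count in 19 of 21 libraries and 841 counts in all. In the luminal epithelium it had 315 CPM in pregnant B, 81.5 in C, 156 in M and 162 in U, against 27.5 in cyclic B, 73.9 in C, 60.8 in J, 18.95 in M and 90.4 in U. The pregnant value exceeded the cyclic one in 4 of 4 mares, by little in mare C, and the ranges of the groups overlapped. In the glandular epithelium it had 175 CPM in pregnant B, 30.5 in C, 63.2 in M and 4.88 in U, against 36.8 in cyclic B, 53.8 in C, 6.86 in M and 78.3 in U. There the pregnant value was higher in 2 mares and lower in the other 2. Luminal PTGES3 exceeded glandular PTGES3 in 7 of 8 biopsies, with an adjusted p of 0.768.

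AKR1B1 encodes aldose reductase, which also makes prostaglandin F2alpha and is held to be a main endometrial synthase of it in cattle and humans. In the luminal epithelium it had 23.4 CPM in pregnant B, 2.40 in C, 0 in M and 91.7 in U, against 173 in cyclic B, 20.98 in C, 49.4 in J, 152 in M and 0 in U. The pregnant value was lower in mares B, C and M and higher in U, and the ranges overlapped. In the glandular epithelium the order of the states was the other way round: pregnant B had 104 CPM, C 15.6, M 28.7 and U 2.44, against 23.4 in cyclic B and 0 in cyclic C, M and U. The glandular pregnant value was higher in 4 of 4 mares, with 88 counts against 28, and the U value rested on 1 count. Luminal AKR1B1 exceeded glandular AKR1B1 in 3 of the 4 cyclic biopsies, with the other at 0 in both epithelia, but in only 1 of the 4 pregnant ones. Its luminal over glandular estimate was 1.92 ± 1.39 in all biopsies (adjusted p = 0.638) and turned to -1.86 in the pregnant biopsies alone.

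PTGFRN is a membrane protein of the immunoglobulin superfamily that binds tetraspanins and was named for lowering the binding of prostaglandin F2alpha to its receptor, so it is neither a synthetic nor a degrading enzyme. In the luminal epithelium it had 13.0 CPM in pregnant B, 4.80 in C, 26.0 in M and 0 in U, against 57.0 in cyclic B, 92.1 in C, 13.3 in J, 0 in M and 112 in U. The 3 highest luminal values were cyclic, yet the ranges overlapped. In the glandular epithelium PTGFRN had 0 counts in the 4 pregnant libraries, against 4 counts in cyclic B and 0 in the other 3 cyclic ones. It was higher in the luminal epithelium in 6 of 8 biopsies and at 0 in both epithelia in the other 2 (adjusted p = 0.0687). The count was 207 luminal against 4 glandular in the mares with both, a CPM ratio of 74.4 with a 95% counting interval of 28.6 to 276, and of 35.3 (13.4 to 132) without mare C. PTGFRN passed the threshold without mare M (6.64, adjusted p = 0.0347), in the analysis without the mare as a replicate block (5.82, adjusted p = 0.0295) and with DESeq2 (6.72, adjusted p = 0.000234), and over the settings in which it could be tested its adjusted p ran from 0.000234 to 0.454.

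HPGD encodes 15-hydroxyprostaglandin dehydrogenase, which starts the inactivation of prostaglandins E2 and F2alpha by oxidising them. In the luminal epithelium it had 41.6 CPM in pregnant B, 2.40 in C, 0 in M and 78.6 in U, against 50.7 in cyclic B, 2.74 in C, 0 in J, 262 in M and 15.1 in U. In the glandular epithelium it had 1 count in pregnant U (2.44 CPM) and 0 in pregnant B, C and M, against 0 in all 4 cyclic libraries. The luminal level was the higher one in 7 of 8 biopsies, and in the other, pregnant M, both epithelia were at 0. Of 168 HPGD counts, 166 were luminal (98.8%, exact 95% interval 95.8% to 99.9%), 1 was glandular and 1 stromal. This interval, too, covers counting error only. The pooled luminal over glandular CPM ratio was 239, with a 95% counting interval of 42.3 to 9483, and 121 (21.1 to 4833) without mare M. In the cyclic biopsies, where glandular HPGD was at 0, the luminal level was at least 39.1-fold higher, with a floor of 3 counts over the group. Of the 119 luminal counts there 83 came from mare M, and the bound was 12.7-fold without mare M and 19.7-fold without mare B. These ratios without a mare were chosen after seeing the data.

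PTGR1 encodes prostaglandin reductase 1, which reduces the keto products of HPGD and also inactivates leukotriene B4. In the luminal epithelium it had 502 CPM in pregnant B, 424 in C, 5.20 in M and 401 in U, against 169 in cyclic B, 2.74 in C, 83.7 in J, 120 in M and 135.6 in U. Each state held 1 library far below the others: pregnant M with 1 count and cyclic C with 3 counts. In the glandular epithelium it had 20.7 CPM in pregnant B, 17.3 in C, 7.66 in M and 4.88 in U, against 21.7 in cyclic B, 0 in C, 6.86 in M and 0 in U. All glandular values lay below the 7 higher luminal ones. The luminal level was higher in 7 of 8 biopsies, the exception again being pregnant M (1 luminal and 4 glandular counts). In the mares with both epithelia, 726 luminal counts stood against 72 glandular ones, a CPM ratio of 14.5 with a 95% counting interval of 11.4 to 18.7. Of the 27 cyclic glandular counts 26 came from mare B, so no ratio is given for each state. The fitted luminal over glandular estimates were 4.13 in the pregnant and 4.49 in the cyclic biopsies.

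**Figure D2:**
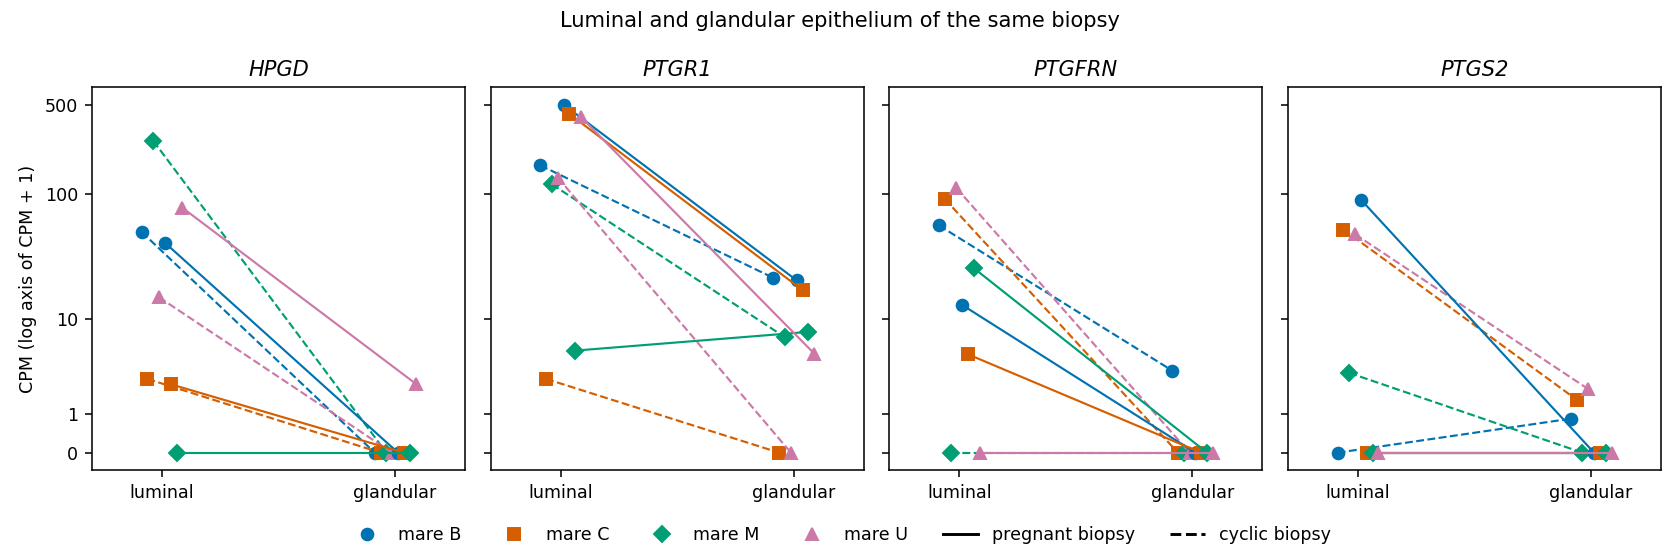
CPM of HPGD, PTGR1, PTGFRN and PTGS2 in the luminal (left) and glandular (right) epithelium of the 8 biopsies that gave both, on a log axis of CPM + 1; each line joins the libraries of 1 biopsy, solid for pregnant and dashed for cyclic, coloured by mare. The lines of HPGD and PTGR1 fall towards the glandular side in 7 of 8 biopsies each.

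The quasi-likelihood test of edgeR, with the mare as a block, set each difference against a variation from mare to mare pooled almost wholly over genes. A gene's own spread between mares therefore hardly entered its p-value. Over 9881 genes, HPGD had an adjusted p of 0.0184 and PTGR1 one of 0.000931. So 2 of the 6 genes passed the threshold, both higher in the luminal epithelium, whereas 4.77% of all tested genes passed it in either direction and 2.2% were higher in luminal epithelium. At an unadjusted p under 0.05 there were 4 of the 6 (PTGS2 and PTGFRN besides), against 13.6% of all genes. The 6 were chosen with earlier results of these data known, so these shares describe them and are no test of the group. All 6 estimates were positive, while the median of all genes was -0.31. HPGD, PTGS2 and PTGFRN had only 1, 3 and 4 glandular counts, so they passed the filter on low counts through their luminal counts. Their positive signs followed from that and add no support. Both calls rested on few mares and libraries. Without mare B, HPGD kept an estimate of 6.31 but had an adjusted p of 0.218, and PTGR1 kept 4.25 with 0.0924. HPGD also missed the threshold without mare C (7.23, adjusted p = 0.0661) and without mare M (6.10, adjusted p = 0.197), while PTGR1 passed without C, M or U. Neither passed in the pregnant biopsies alone (4.74, adjusted p = 0.525, for HPGD and 4.13, adjusted p = 0.206, for PTGR1) or in the cyclic ones alone (7.50, adjusted p = 0.137, and 4.49, adjusted p = 0.343). Over the settings in which each could be tested, the adjusted p ran from 2.6e-05 to 0.525 for HPGD and from 7.95e-07 to 0.343 for PTGR1. Every estimate was positive, which for HPGD followed from its 1 glandular count. Without the mare as a replicate block HPGD and PTGS2 fell below the filter on low counts and were not tested, while PTGR1 and PTGFRN passed (adjusted p = 0.0019 for PTGR1).

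**Figure D3:**
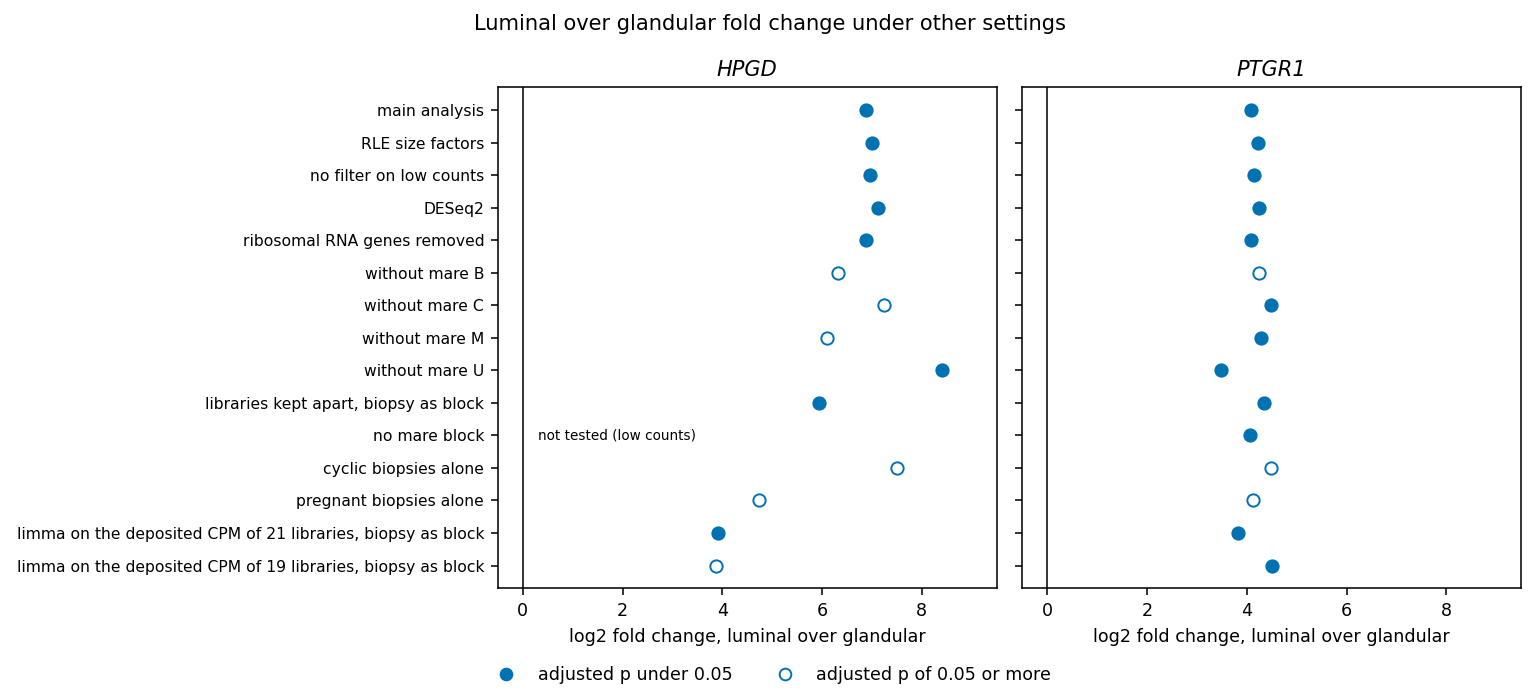
Log2 fold change of luminal over glandular epithelium for HPGD (left) and PTGR1 (right) under the main analysis and each other setting; filled points have an adjusted p under 0.05 and open points do not. All points lie right of 0, which for HPGD followed from its 1 glandular count. The points of HPGD without mare B, C or M are open, as are those of both genes in each state alone.

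Cell type markers moved with the same comparison. Summed gland markers reached 1339 to 4884 CPM in luminal and 14592 to 53562 CPM in glandular libraries (4 of 5 with a count, FOXA2 at 0), and these ranges did not overlap. That sum was carried mostly by P19, which averaged 1068 CPM in pregnant and 2866 CPM in cyclic luminal libraries, against 30284 and 23244 CPM in pregnant and cyclic glandular ones. Another of the list, SERPINA14, went the other way, with 864 CPM in pregnant and 183 CPM in cyclic luminal libraries, against 16.5 and 2.77 CPM in glandular ones of the same states. PAX8 did so in pregnant libraries alone, with 240 CPM in luminal against 67.5 CPM in glandular ones. In cyclic libraries PAX8 averaged 38.5 CPM in luminal against 61.0 CPM in glandular ones, and SCGB1A1 was higher in glandular libraries of both states. Markers of ciliated cells summed to 62.4 to 1482 CPM in luminal and 24.9 to 512 CPM in glandular libraries (5 of 5), those of lymphocytes to 25.3 to 296 and 0 to 66.9 CPM (6 and 5 of 8) and those of stromal fibroblasts to 636 to 5118 and 341 to 1530 CPM (8 of 8), so these ranges overlapped. Single markers in these lists differed in direction: DCN averaged 36.8 CPM in pregnant luminal against 97.8 CPM in pregnant glandular libraries, and TEKT1 7.15 against 127 CPM. In cyclic libraries DCN averaged 71.0 CPM in luminal against 115 CPM in glandular ones, whereas TEKT1 turned round, with 29.4 against 0.738 CPM. The list of macrophages and dendritic cells summed to 1420 to 8566 CPM in luminal against 112 to 697 CPM in glandular libraries, with all 7 markers counted in both. Most of that was CD74, which epithelium can also express, and without it the list summed to 0 to 199 against 3.83 to 122 CPM. Epithelial markers overlapped, at 565 to 2857 CPM in luminal and 898 to 15189 CPM in glandular libraries. Smooth muscle markers summed to 0 to 209 CPM in luminal and 0 to 9.76 CPM in glandular libraries, endothelial ones to 0 to 95.8 and 4.88 to 286 CPM, and those of mast cells to 0 to 2.60 and 0 to 63.5 CPM. The lymphocyte markers NKG7 and CD79A and the blood markers were at 0. The part of these cell types in the HPGD and PTGR1 differences was not tested.

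The pregnancy comparison in the luminal epithelium asked whether the uterus with a conceptus differs in these genes from the cyclic uterus of the same day. PTGR1 averaged 333 ± 223 CPM in pregnant (SD, n = 4) and 102 ± 63.5 CPM in cyclic libraries (n = 5), a log2 fold change of 1.71 ± 0.93 with an interval of 2 SE on each side from -0.14 to 3.57 (adjusted p = 0.694). It was higher in pregnancy in mares B, C and U and lower in M, and no other of the 6 came as near to the threshold. PTGES3 averaged 179 ± 97.8 CPM in pregnant and 54.3 ± 30.4 CPM in cyclic libraries, a log2 fold change of 1.74 ± 1.21 (interval -0.68 to 4.16, adjusted p = 0.85).

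The other luminal estimates were negative. AKR1B1 averaged 29.4 ± 42.9 CPM in pregnant and 79.1 ± 78.5 CPM in cyclic libraries (-1.41 ± 1.59, adjusted p = 0.973), and HPGD 30.7 ± 37.2 and 66.1 ± 111 CPM (-1.04 ± 1.61, adjusted p = 0.973). PTGFRN averaged 10.9 ± 11.4 CPM in pregnant and 54.9 ± 48.5 CPM in cyclic libraries (-2.29 ± 1.72, interval -5.73 to 1.14, adjusted p = 0.887). PTGS2 was too low to test, with 35 pregnant counts, all in mare B, against 89 cyclic counts. Of the 5 genes tested 0 passed by edgeR, 0 by DESeq2 and 0 at an unadjusted p under 0.05, where 0.437% of all 4344 genes passed the adjusted threshold. These intervals reach several-fold changes in either direction for AKR1B1 and HPGD, so the depth and the number of mares could not show smaller changes. Without pregnant U the estimates were -3.01 for AKR1B1 and -1.97 for HPGD, and over all left-out libraries in which each could be tested they ran from -3.01 to -0.99 and from -1.97 to -0.62.

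In the glandular epithelium only PTGES3 and AKR1B1 were high enough to test between the states. AKR1B1 averaged 37.6 ± 45.3 CPM in pregnant and 5.85 ± 11.7 CPM in cyclic libraries (n = 4 each), a log2 fold change of 2.55 ± 1.65 (interval -0.74 to 5.84, adjusted p = 0.904). PTGES3 averaged 68.4 ± 75.0 CPM in pregnant and 43.9 ± 30.0 CPM in cyclic libraries (0.66 ± 1.37, adjusted p = 0.999), and its sign turned without pregnant mare B (-0.44). The 4 untested genes had 0 pregnant against 3 cyclic counts (PTGS2), 1 against 0 (HPGD), 45 against 27 (PTGR1) and 0 against 4 (PTGFRN). Of the 2 tested genes 0 passed by edgeR, 0 by DESeq2 and 0 at an unadjusted p under 0.05, and 0.0623% of all 4816 genes passed the adjusted threshold.

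AKR1B1 had estimates of opposite sign in the epithelia, and the difference of the pregnancy effects, luminal minus glandular, was tested in the 16 epithelial libraries of these 4 mares. It came to -6.61 ± 3.37 for AKR1B1, with an unadjusted p of 0.0502 and an adjusted p of 0.942, against a median of -1.54 over all genes. The other 5 genes had adjusted p values from 0.956 to 0.99. With edgeR 0 of 6 passed, 0 had an unadjusted p under 0.05 and 0 passed with DESeq2, against 0.0107% of all 9325 genes in edgeR. The data therefore do not show that the pregnancy effect on any of the 6 differs between the epithelia.

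**Figure D4:**
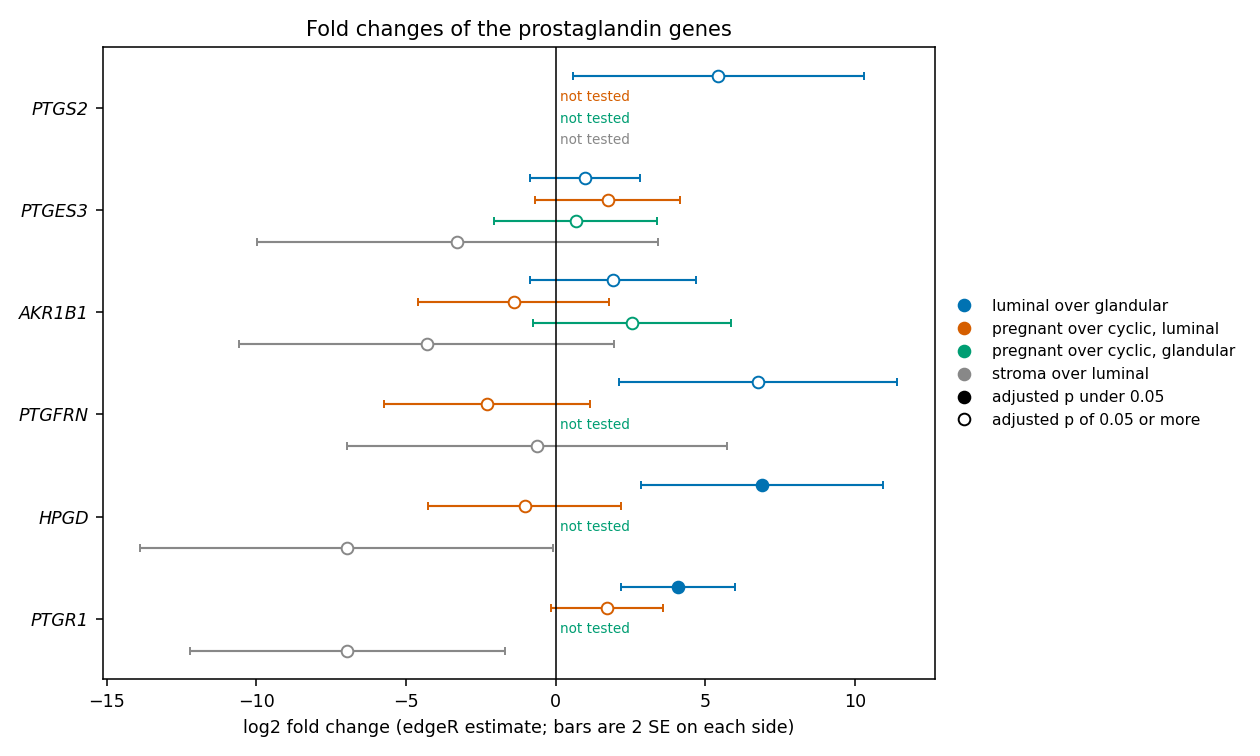
Log2 fold changes of the 6 genes (edgeR estimates, bars of 2 SE on each side) for luminal over glandular epithelium, pregnant over cyclic in each epithelium, and stroma over luminal epithelium; filled points have an adjusted p under 0.05. The 2 filled points are HPGD and PTGR1 in luminal over glandular epithelium.

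In the stroma each gene rested on single libraries. PTGES3 had 242 CPM in pregnant M and 3.83 in pregnant U, against 0 counts in both cyclic libraries. PTGFRN had 440 CPM in pregnant U and 5.71 in pregnant M, against 0 counts in both cyclic ones. AKR1B1 had 0 counts in both pregnant libraries, against 201 CPM in cyclic M and 3.55 in cyclic B. For each of these 3 genes 1 library thus held nearly all stromal counts, 127 of 128 for PTGES3 (pregnant M), 115 of 118 for PTGFRN (pregnant U) and 33 of 34 for AKR1B1 (cyclic M). The pregnant libraries that held those counts are the ones with 66.2% (M) and 0.819% (U) of their counts in 18S ribosomal RNA, and the part of this in the stromal levels was not tested. HPGD had 1 count and PTGR1 had 2 counts in pregnant M and 0 in the other 3 libraries. PTGS2 had 0 of 1757422 stromal counts, which allows up to 2.44 CPM by a floor of 3 counts. None of the 6 passed the filter for a pregnancy test in the stroma, where 0% of 2212 genes passed in edgeR (88 at an unadjusted p under 0.05) and 0 in DESeq2.

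Stroma was also set against each epithelium of the same 4 biopsies, from 3 mares. PTGR1 had 2 stromal against 272 luminal counts, a log2 fold change of -6.96 ± 2.63 (adjusted p = 0.324), and was lower in stroma in 4 of 4 biopsies. HPGD had 1 stromal against 137 luminal counts (-6.98 ± 3.45, adjusted p = 0.644) and was lower in 3 of 4. Both had an unadjusted p under 0.05, as did 7.48% of all genes tested. Both passed with DESeq2 (adjusted p = 0.0129 for PTGR1 and 0.0401 for HPGD). Over all genes DESeq2 also called many more here than edgeR did. Over the edgeR settings the adjusted p ran from 0.0678 to 1.00 for PTGR1 and from 0.179 to 1.00 for HPGD. With so few stromal counts, both passed the filter on low counts through their luminal counts, so their negative signs add no support. Of the 5 genes tested 0 passed in edgeR, against 0.829% of 5551 genes. The estimates of PTGES3 (-3.29 ± 3.35), AKR1B1 (-4.32 ± 3.13) and PTGFRN (-0.63 ± 3.18) had intervals across 0, and the median over all genes was -0.74.

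Against the glandular epithelium, stromal PTGES3 (-0.72 ± 3.14) and AKR1B1 (-1.04 ± 2.88) were the only genes high enough to test. Of these 0 passed by edgeR, by DESeq2 or at an unadjusted p under 0.05, and 0.616% of 6983 genes passed in edgeR. PTGR1 had 2 stromal against 33 glandular counts, and PTGFRN 118 against 4, of which 115 came from pregnant U. Epithelial markers summed to 67.0 to 561 CPM in stroma, against 565 or more in every epithelial library, and fibroblast markers to 4378 to 10964 CPM.

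Ordered by mean level, most neighbouring groups of libraries overlapped in range. PTGR1 ran from 333 CPM in pregnant luminal libraries through 102 in cyclic luminal, 12.6 in pregnant glandular, 7.15 in cyclic glandular and 1.90 in pregnant stromal libraries to 0 in cyclic stroma, and the ranges of every neighbouring pair overlapped. HPGD averaged 30.7 CPM in pregnant luminal and 66.1 CPM in cyclic luminal libraries, then 0.952 in pregnant stroma, 0.61 in pregnant glandular libraries and 0 in the others, and here too all neighbours overlapped. Among neighbours in these orders, the ranges were apart for PTGES3 alone, between cyclic stroma (0 CPM) and cyclic glandular libraries (43.9 CPM). Groups farther apart in an order could separate: PTGES3 in pregnant luminal libraries (81.5 CPM or more) lay above that in cyclic glandular ones (78.3 CPM or less).

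The other genes of prostaglandin synthesis were mostly at the edge of detection. Of 22 listed genes for substrate release and synthesis, 17 were in the table, 16 had a count and 5 could be tested between the epithelia. The other cyclooxygenase, PTGS1, had 4 counts in 2 libraries, and PTGES, the inducible prostaglandin E synthase, 43 counts in 9 libraries. PLA2G2A, a secreted phospholipase, was lower in the luminal (126 ± 165 CPM, SD, n = 9 libraries) than in the glandular epithelium (836 ± 822 CPM, n = 8), by -2.03 ± 0.51 on the log2 scale (adjusted p = 0.00275). It was the only one of the 5 to pass, and their median was -1.88, against -0.31 for all genes.

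Breakdown and transport had 8 listed gene names, not all of them distinct genes, with 6 found in the table and 2 tested. PTGR3, another prostaglandin reductase, was lower in luminal (66.1 ± 94.0 CPM) than in glandular libraries (184 ± 80.9 CPM), by -2.70 ± 0.83 (adjusted p = 0.0299), the opposite direction to PTGR1. PTGR2 had an estimate of -1.24 ± 1.99 (adjusted p = 0.916). The transporter SLCO2A1, which takes prostaglandins into cells, had 75 counts in 3 libraries.

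Of 13 listed receptor genes, 11 were in the table, 10 had a count, 4 were tested and 0 passed between the epithelia in edgeR (0 at an unadjusted p under 0.05, and PTGER4 with DESeq2). PTGER4, a prostaglandin E2 receptor, had 60.1 ± 106 CPM in luminal and 3.96 ± 4.32 CPM in glandular libraries (3.14 ± 1.72, adjusted p = 0.429). PTGER2, another, had 17.1 ± 33.5 CPM in luminal and 25.9 ± 26.0 CPM in glandular libraries (-1.36 ± 2.26, adjusted p = 0.917). PTGFR, the prostaglandin F2alpha receptor, had 23 counts in 2 libraries and could not be tested.

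The genes of luteolytic signalling gave a mixed picture, with 6 of 8 in the table and 4 tested. PLCB1, a phospholipase C that acts below Gq-coupled receptors, was higher in luminal (137 ± 176 CPM) than in glandular libraries (13.0 ± 18.96 CPM), by 3.73 ± 1.03 (adjusted p = 0.00931). The excess lay mostly in the cyclic state, with 223 CPM in luminal against 8.97 CPM in glandular libraries. In pregnant ones the means were 28.9 and 17.1 CPM. The estimate was 4.95 in the cyclic biopsies alone (adjusted p = 0.141) and 0.58 in the pregnant ones alone (adjusted p = 0.975). ESR1, the estrogen receptor alpha, was lower in luminal (65.7 ± 70.8 CPM) than in glandular libraries (262 ± 186 CPM), by -2.24 ± 0.70 (adjusted p = 0.0325). The oxytocin receptor gene OXTR, also on this list, was not found by name in the count table, so its level is not known from these data.

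Among 10 partners of the PTGES3 co-chaperone, all tested, 1 passed in edgeR and 4 had an unadjusted p under 0.05. FKBP5, an immunophilin that binds heat shock protein 90, was lower in luminal (277 ± 145 CPM) than in glandular libraries (1058 ± 1339 CPM), by -1.54 ± 0.44 (adjusted p = 0.0136). HSP90AA1, the chaperone itself, had an estimate of 0.65 ± 0.36 (adjusted p = 0.439), and 5 of the 10 estimates were positive. With DESeq2 2 of the 10 passed, FKBP5 and PPID, a cyclophilin co-chaperone with an edgeR estimate of 2.62 ± 1.02 (adjusted p = 0.14). Of the 6 tetraspanins and related partners of PTGFRN, 5 were tested and 0 passed in edgeR (1 at an unadjusted p under 0.05, CD151, which passed with DESeq2), with CD9 at 0.01 ± 0.65 (adjusted p = 0.99) and CD63 at -0.29 ± 0.48 (adjusted p = 0.917). These 5 calls, of PLA2G2A, PTGR3, PLCB1, ESR1 and FKBP5, all missed the threshold without mare B (adjusted p from 0.0731 to 0.458) and without mare C (0.134 to 0.262). Those of PLCB1 (0.12) and ESR1 (0.106) also did without M, and that of ESR1 (0.145) without U. In the other comparisons 0 genes of these 6 lists passed in edgeR or DESeq2, and 8 of 128 results (6.25%) had an unadjusted p under 0.05 in edgeR, where 3.98% to 8.48% of all genes did.

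The genes most like PTGR1 and PTGES3 over the 21 libraries were looked up by Spearman's rank correlation of CPM among 3443 genes with a mean of 50 CPM or more. For PTGR1 they were NAGK, a sugar kinase (rho = 0.881), CLDN4, a tight junction protein (0.838), and SLC37A2, a sugar phosphate transporter (0.837), against a median rho of 0.0719 over all genes compared. For PTGES3 they were FOSL2, a transcription factor subunit (0.80), HDGF, a growth factor (0.753), and the unnamed ID 102149229 (0.75), against a median of 0.0779. The points share mares, compartments and depth, so these values describe likeness alone. The other 4 genes had a count in fewer than 15 libraries and were not ranked.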

How the data were processed

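Levels of 6 prostaglandin genes were taken from RNA-seq of 21 laser-captured libraries, made from 1 ng of RNA with a single-cell kit and read as 125 bp single-end reads, per the labels' protocols. An unnamed part of the libraries was amplified once more. The submitters' processing notes list Trimmomatic 0.32.2 and HISAT2 2.0.3. Not given in the sources used here are the counting program, the build, the gene models and the use of strand. Raw counts were deposited by the authors for 24942 gene IDs, with 2 CPM signal tables of 10307 genes in 21 libraries and 10410 genes in 19 libraries (without pregnant luminal M and cyclic glandular M). Each deposited CPM signal value equalled a count times a constant of its library, within a relative deviation of 9.55e-15. Symbols came from a RefSeq gene table by ID, which matched 21420 IDs (85.9%) and was used for names only.

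The main tests used edgeR 4.0.16 in R 4.3.3 on the deposited counts of all genes: two-sided quasi-likelihood F-tests, TMM scaling, filterByExpr (minimum count 10, minimum total count 15) and Benjamini-Hochberg adjustment over every gene in the fit, called under 0.05. An adjusted p with no tool named is edgeR's, and the SE is the absolute log2 fold change divided by the square root of F. Levels are CPM of TMM-scaled library sizes, over all 21 libraries together. Pregnant and cyclic libraries were compared without a block, compartments from counts summed per mare with the mare as a block, and the difference of pregnancy effects with the biopsy as a block. DESeq2 1.42.0 on the counts and limma 3.58.1 on log2(deposited CPM + 1) were alternatives, beside RLE scaling, no filter, no ribosomal RNA genes and leaving out libraries or mares. The scripts were tested on simulated counts.

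Samples were paired by the mare's letter, which marks the same animal. Deviations of the paired libraries from their group means correlated weakly over 3443 genes (r from 0.047 to 0.0549 in luminal and from 0.00172 to 0.0654 in glandular epithelium). With the mare as a replicate block, the genes called between the states numbered 8 in luminal and 0 in glandular epithelium, against 19 and 3 without it, and no call of the 6 genes changed. Counting intervals are exact 95% intervals, and a group without counts was given a floor of 3 counts. Both cover counting error only and treat each read as independent. Amplified reads are not independent molecules, so the intervals may be too narrow even for that error. The members and the context lists were chosen with earlier results of these data known. Context genes were named where they passed a test or were among the 4 of their list with the highest mean CPM, apart from PTGS1, PTGES and PTGFR, which were chosen after their values were seen. The genes of like pattern were the 3 with the highest rho, for members with a count in at least 15 libraries. No sequences are shown.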

Additional observations from a re-analysis of the deposited data

Results flagged for a closer look

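In 5 of the 21 combinations of gene and group that could be tested, 1 library lay far from the others of its group by Dixon's test, and chance flags about 1 in 20. In 4 of these 5 the other libraries of the group were all at 0, where any single value is flagged whatever its size, so that rate does not apply to them. PTGS2 stood at 91.0 CPM in pregnant luminal mare B, against 0 in the other 3 pregnant luminal libraries. HPGD stood at 262 CPM in cyclic luminal mare M, where the next library had 50.7 CPM, and without mare M its luminal over glandular difference missed the threshold (log2 fold change 6.10, adjusted p = 0.197, with adjusted p values from 2.6e-05 to 0.525 over the settings in which it could be tested). AKR1B1 stood at 23.4 CPM in cyclic glandular mare B, against 0 in the other 3. The last 2 rested on very few counts: HPGD at 2.44 CPM (1 count) in pregnant glandular mare U, and PTGFRN at 3.34 CPM (4 counts) in cyclic glandular mare B, each against 0 in the other 3 libraries of the group.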

How the results depend on the processing

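Under other settings the 6 genes kept 0 calls between the states and in the difference of effects. Between the epithelia 2 passed, against 4 with DESeq2, 1 in limma on the deposited CPM of 19 libraries (chosen after seeing the data), 0 in the cyclic and 0 in the pregnant biopsies alone, and 0 to 2 leaving out each mare. In stroma against luminal epithelium 2 passed with DESeq2. Signs turned for HPGD between luminal states (0.58) and PTGES3 between glandular states (-0.51) in limma on 19 libraries, for AKR1B1 between the epithelia in pregnant biopsies (-1.86), and in the difference of effects for PTGR1 (0.17 with DESeq2, 0.97 without the biopsy block) and PTGFRN (0.28 without it). Without the mare as replicate block, stroma over glandular PTGES3 was 1.08 and AKR1B1 0.19. Leaving out libraries or mares, PTGES3 between glandular states ran from -0.44 to 1.105, the differences of effects of PTGS2 from -4.57 to 2.83, of PTGR1 from -1.73 to 0.47 and of PTGFRN from -3.51 to 0.14, and stroma over glandular PTGES3 from -1.07 to 1.17 and AKR1B1 from -0.48 to 0.27. PTGFRN in stroma over luminal epithelium could be fitted once, at 1.63. The cause of these shifts was not tested.

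Counts over all genes moved more. Between luminal states (19) they were 12 without a filter, 122 with DESeq2, 8 with the replicate block, 0 and 0 in limma on 21 and 19 libraries, and 2 to 37 leaving out libraries. Between glandular states (3) they were 0 with RLE scaling, 34 without a filter, 1 with DESeq2, 0 with the replicate block, 0 and 0 in limma, and 0 to 28 leaving out libraries. Between stromal states (0) they were 2 without a filter and 0 to 2 leaving out libraries. For the difference (1) they were 40 with DESeq2, 0 without ribosomal RNA genes and 10 without the biopsy block. Between the epithelia (471) they were 1182 with DESeq2, 308 with the biopsy as block, 82 in cyclic and 114 in pregnant biopsies alone, and 211 to 567 leaving out mares. For stroma against luminal (46) they were 29 without a filter, 352 with DESeq2, 27 with the biopsy as block, 89 without a block and 18 to 36 leaving out mares. Against glandular epithelium (43) they were 20, 301, 27 and 99 in the same order and 0 to 45 leaving out mares. No replicate block was possible between stromal states, which share mare M alone. HPGD had 1 glandular count in 5511727.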
